A study of Mus musculus with 4 samples.

Results

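The platelet-derived growth factor (PDGF) family and the genes used to mark mural cells, the pericytes and smooth muscle cells that wrap blood vessels, were followed in cells of the mouse hindlimb bud at embryonic day 11.5. The members were taken by gene symbol from the deposited count table and number 9 of its 25239 genes. They are the ligand genes Pdgfa, Pdgfb, Pdgfc and Pdgfd, the receptor genes Pdgfra and Pdgfrb, and the mural cell genes Rgs5, Cspg4 and Acta2. Both cell groups came from wild-type FVB mice with a transgene inserted at the H11 locus, made of the human form of the ZRS limb enhancer with the base change 404G>A, the hsp68 promoter and mCherry. One group held anterior cells that were mCherry-positive and the other central cells that were mCherry-negative, with 2 libraries each. Dissected region and reporter state differ together between the groups and cannot be told apart. How many embryos went into a library is not stated, and where the replicates are not separate animals the p-values measure only the spread between these libraries.

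PDGF ligands are secreted as dimers that bring together a pair of receptor tyrosine kinases. PDGF-A and PDGF-C act chiefly through the alpha receptor, which many mesenchymal progenitors carry, whereas PDGF-B acts on both receptors and PDGF-D chiefly on the beta receptor. Endothelial cells release PDGF-B to recruit mural cells, which carry the beta receptor. In early limb buds both receptors are also made by mesenchyme, so neither marks mural cells alone there.

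Library totals ranged from 30080925 to 33257383 counts, and 3 counts, taken as the floor, are worth 0.0902 to 0.0997 CPM (counts per 1 M counts). The limb mesenchyme gene Prrx1 had 19828 to 23901 counts and the hindlimb gene Tbx4 6968 to 8657 counts in every library, and neither was called different. They belong to a list of 8 limb mesenchyme genes, of which 4 were higher in anterior cells, 0 lower and 4 not called. The red cell genes stood apart, since 6 erythroid markers summed to 3287 and 8382 CPM in the anterior libraries and to less than 8 CPM in each central one. All 9 members passed the filter on low counts. CPM values below are scaled by TMM (trimmed mean of M-values), and a gene was called where edgeR gave an adjusted p under 0.05 (quasi-likelihood F test, Benjamini-Hochberg over 14610 genes).

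Of the 9 members, 5 were lower in anterior cells, none was higher and 4 were not called. The genes that fell were Pdgfa, Pdgfc, Pdgfra, Cspg4 and Acta2, and all but Pdgfc fell by more than 2-fold. Among all tested genes, 22.9% were called, 10.7% higher and 12.3% lower in anterior cells, and 6.78% were lower by more than 2-fold. Values of the anterior and central libraries did not overlap for 6 members, against 63.5% of all tested genes. The median log2 change of the members (anterior minus central, as throughout) was -0.97, beside -0.01 for all tested genes. The count of 5 lower members was the same without each of the 4 libraries in turn. In bulk samples, fewer cells of a type and less RNA per cell cannot be told apart.

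**Figure D1:**
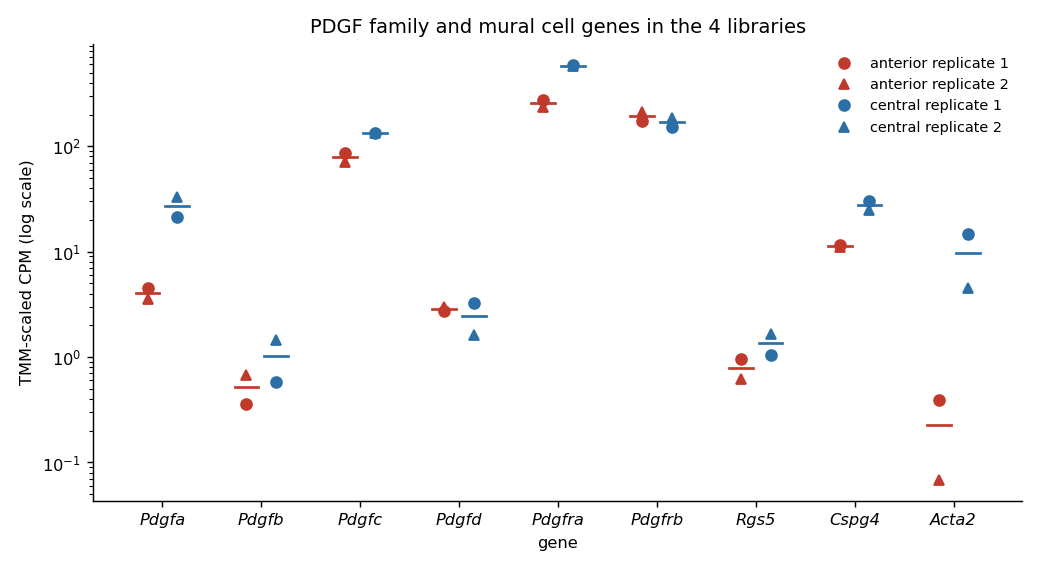
TMM-scaled CPM on a log axis for the 9 genes in each library, with anterior libraries in red, central libraries in blue, circles for replicate 1, triangles for replicate 2 and a bar at each group mean. Pdgfra, Pdgfa, Pdgfc, Cspg4 and Acta2 are separated between the groups, whereas the points of Pdgfb, Pdgfd and Pdgfrb overlap.

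Of the receptor genes, Pdgfra fell in anterior cells and Pdgfrb was not called. Pdgfra, encoding the alpha receptor, lies on chromosome 5 (GRCm38, 75152292 to 75198215, plus strand). Its level was 277.6 and 238.3 CPM in anterior against 593.3 and 571.6 CPM in central libraries. Both anterior values were less than 0.5 of either central value. Group means were 258 ± 27.7 and 582 ± 15.4 CPM (SD, n = 2 each) and the log2 change was -1.18 ± 0.08 (SE, adjusted p = 2.39e-05 by edgeR).

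Pdgfrb, encoding the beta receptor, was at 175.1 and 209.7 CPM in anterior cells and at 151.4 and 185.9 CPM in central cells. The groups overlapped, with central replicate 2 above anterior replicate 1. The log2 change was 0.19 ± 0.11 (SE), with a 95% interval of -0.07 to 0.45, and adjusted p = 0.271 by edgeR. That interval leaves out a fall of the size seen for Pdgfra. Among the fits that left out 1 library, Pdgfrb was called only without central replicate 2, where the log2 change was 0.35. Without central replicate 1 it was 0.05. Each of these fits has 1 central library, so neither settles whether Pdgfrb differs.

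Levels of the receptor genes were compared per kilobase of exon, with exon-union lengths of 10024 bases for Pdgfra and 5478 for Pdgfrb. On that scale Pdgfrb was the higher receptor in anterior cells, at 32.0 and 38.3 CPM per kb against 27.7 and 23.8 for Pdgfra. This order depends on the lengths used. In CPM, Pdgfra was the higher there too, at 277.6 and 238.3 against 175.1 and 209.7. In central cells the order was the other way, with 59.2 and 57.0 CPM per kb for Pdgfra against 27.7 and 33.9 for Pdgfrb. The ratio of Pdgfra to Pdgfrb was thus 0.866 and 0.621 in anterior against 2.14 and 1.68 in central libraries. The log2 ratio differed by -1.37 between the groups and the libraries did not overlap. An exact two-sided permutation test gave p = 0.333, the smallest that 2 against 2 libraries can give.

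**Figure D2:**
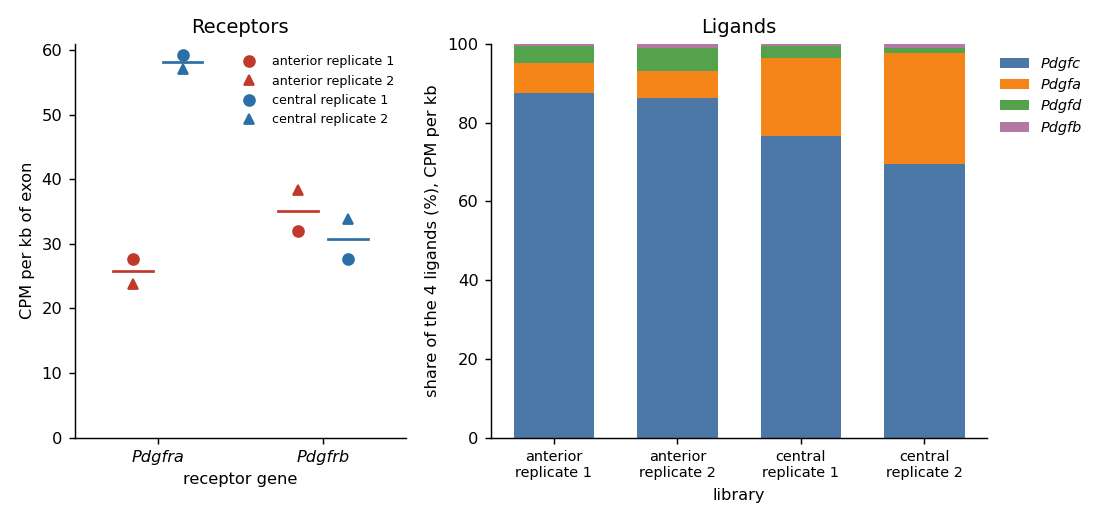
Left, CPM per kb of exon for the receptor genes, with anterior libraries in red, central libraries in blue and a bar at each group mean. Right, the share of each ligand gene in the summed CPM per kb of the 4 ligands, 1 bar per library. Per kb of exon, Pdgfra is above Pdgfrb only in the central libraries, and Pdgfc holds 69.4% to 87.5% of the ligand signal in every library. In CPM not divided by length, Pdgfra is above Pdgfrb in every library.

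Of the ligand genes, Pdgfc was the most abundant per kilobase in all 4 libraries. PDGF-C is secreted in a latent form whose CUB domain must be cut off before it can bind its receptor. The gene lies on chromosome 3 (GRCm38, 81036416 to 81214040, plus strand). It measured 86.05 and 71.04 CPM in anterior cells and 133.1 and 132.3 CPM in central cells. The central libraries were nearly equal and both lay above the anterior ones. The log2 change was -0.76 ± 0.09 (SE), and adjusted p = 0.000684 by edgeR.

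Pdgfa had the largest fall among the ligands. Its product forms the PDGF-AA homodimer, which binds only the alpha receptor. The gene lies on chromosome 5 (GRCm38, 138976014 to 138997370, minus strand). Its counts were 152 and 104 in anterior against 650 and 1070 in central libraries, or 4.56 and 3.55 CPM against 21.1 and 33.1 CPM. Every central value exceeded every anterior value by more than 4-fold. The log2 change was -2.74 ± 0.24 (SE), a 6.66-fold lower level in anterior cells, with an adjusted p = 9.54e-05 by edgeR.

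The remaining ligands had low counts. Pdgfb, encoding the ligand that endothelial cells use to recruit mural cells, lies on chromosome 15 (GRCm38, 79995874 to 80014977, minus strand) and had 12 and 20 counts in anterior cells and 18 and 47 in central cells. The groups overlapped, and the high value was that of central replicate 2. The log2 change of -0.97 ± 0.65 (SE) had a 95% interval of -2.45 to 0.50 (adjusted p = 0.327 by edgeR). It ran from -0.17 without central replicate 2 to -1.49 without anterior replicate 2 and was called in neither fit. Pdgfd, on chromosome 9 (GRCm38, 6168584 to 6378850, plus strand), had 92 and 87 counts in anterior cells and 100 and 52 in central cells. Here too the groups overlapped, at a log2 change of 0.24 ± 0.39 (SE) with a 95% interval of -0.65 to 1.13 (adjusted p = 0.712 by edgeR), and the sign turned without central replicate 2 (-0.18). At these counts no difference was detectable for either gene, and both intervals are wide.

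Pdgfa held a smaller share of the ligand pool per kilobase in both anterior libraries than in either central one. Pdgfc made up 87.5% and 86.2% of the 4 ligands in anterior against 76.7% and 69.4% in central libraries. Pdgfa made up 7.56% and 7.02% against 19.8% and 28.3%. Pdgfc exceeded Pdgfa 11.6-fold and 12.3-fold in anterior cells and 3.87-fold and 2.45-fold in central cells. The log2 ratio was higher by 1.95 in anterior cells with no overlap between libraries (exact two-sided permutation p = 0.333, the smallest possible, also after adjustment over the 2 ratios tested). Pdgfb stayed at or below 1.01% and Pdgfd at or below 5.80% of the pool.

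Among the mural cell genes, Acta2 showed the largest change of the 9 members. It encodes smooth muscle alpha-actin, a contractile protein of mural cells that developing skeletal and heart muscle also make for a time. The gene lies on chromosome 19 (GRCm38, 34241090 to 34255590, minus strand). Its counts were 13 and 2 in anterior against 456 and 145 in central libraries, or 0.390 and 0.0682 CPM against 14.8 and 4.48 CPM. Anterior replicate 2 was below the floor of 3 counts, and the central replicates differed by more than 3-fold from each other. The log2 change was -5.32 ± 0.74 (SE), with a 95% interval of -7.01 to -3.64 and an adjusted p = 0.00129 by edgeR. Its size rested on single libraries: it was -7.06 without anterior replicate 1, -4.61 without anterior replicate 2, -4.23 without central replicate 1 and -5.94 without central replicate 2, and it was called each time.

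Cspg4 encodes the NG2 proteoglycan, which pericytes carry but which other immature mesenchymal cells also make. It lies on chromosome 9 (GRCm38, 56865033 to 56899870, plus strand). It measured 11.7 and 11.2 CPM in anterior cells and 30.3 and 24.8 CPM in central cells. The anterior libraries were close together and below both central ones. The log2 change was -1.27 ± 0.14 (SE), with an adjusted p = 0.000344 by edgeR.

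Rgs5, encoding a regulator of G protein signalling and a common pericyte marker, had low counts in both groups. It lies on chromosome 1 (GRCm38, 169655501 to 169695813, plus strand). Its counts were 32 and 18 in anterior against 32 and 54 in central libraries. In CPM the groups just failed to overlap, at 0.959 and 0.614 against 1.04 and 1.67. The log2 change of -0.78 ± 0.50 (SE) was not called (adjusted p = 0.316 by edgeR), and its 95% interval ran from -1.93 to 0.37.

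**Figure D3:**
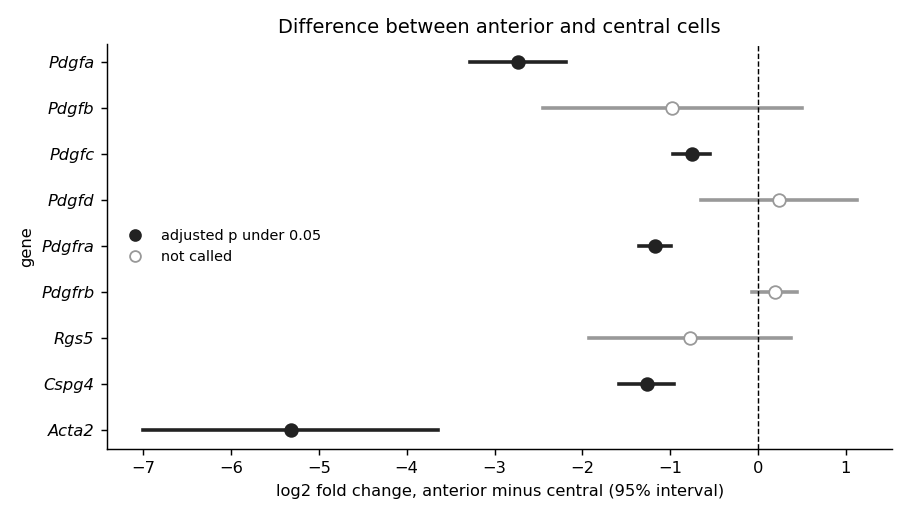
Log2 change of anterior minus central cells for each gene (points) with its 95% interval (bars), filled black where the adjusted p-value was under 0.05 and open grey where it was not. The 5 filled points all lie to the left of 0, from -0.76 for Pdgfc to -5.32 for Acta2, and the 4 grey intervals all include 0.

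Per kilobase of exon, the order of the mean levels in anterior cells was Pdgfrb, Pdgfra, Pdgfc, Pdgfa, Cspg4, Pdgfd, Rgs5, Pdgfb and Acta2, from 35.1 down to 0.104 CPM per kb. Cspg4 and Pdgfd overlapped between libraries, as did Rgs5, Pdgfb and Acta2. In central cells the order was Pdgfra, Pdgfrb, Pdgfc, Pdgfa, Acta2, Cspg4, Pdgfd, Rgs5 and Pdgfb, from 58.1 down to 0.245 CPM per kb. There the values of Acta2 and Cspg4 overlapped, as did those of Rgs5 and Pdgfb. Acta2 thus moved from the lowest rank to the fifth.

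The stretch before the start of transcription was read for 7 of the members from RefSeq sequences (GRCm38.p6), 250 bases each. Pdgfa had 2 start sites, and both were read. The search on both strands covered more than 1 kind of motif. A motif rich in G and C occurred before Pdgfa and Cspg4 and in 32.7% of all windows. A motif rich in A and T occurred before Pdgfd and in 12.4% of all windows. Neither occurred before Acta2 or Pdgfc. Out of this wider search, only the CArG box is followed below, the site bound by serum response factor in contractile genes. It was read in a form that allows at most 1 base other than A or T at its 6 central positions. This looser form occurred in the windows of Acta2 and Pdgfc and in 8.59% of all windows of this length. Acta2 and Pdgfc were lower in anterior cells, but so were Pdgfa, Pdgfra and Cspg4, whose windows lacked it. It was also absent before Pdgfd and Rgs5, which were not called. The strict form, with A or T at all 6 central positions, occurred in 1.47% of all windows and here only before Pdgfc. These sequences are shown because the groups of Acta2 and Pdgfc do not overlap and the boxes can be seen in their letters, with the box in capitals. The Acta2 stretches lie at chr19:34255438-34255467 and chr19:34255388-34255417 on the minus strand, with boxes 84 to 75 and 34 to 25 bases before the RefSeq start. The GENCODE span of Acta2 reaches further upstream, to 34255590, so both stretches fall inside the annotated gene. Whether they lie in an exon was not checked. The Pdgfc window lies at chr3:81036166-81036415 on the plus strand, with its box 17 to 8 bases before the start.
Acta2, upstream box: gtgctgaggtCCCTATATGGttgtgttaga
Acta2, downstream box: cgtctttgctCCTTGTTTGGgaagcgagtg
Pdgfc: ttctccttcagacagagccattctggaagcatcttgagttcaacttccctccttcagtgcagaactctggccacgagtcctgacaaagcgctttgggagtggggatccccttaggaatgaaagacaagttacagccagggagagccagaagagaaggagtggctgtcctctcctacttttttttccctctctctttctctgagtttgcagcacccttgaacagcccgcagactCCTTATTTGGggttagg
A match is a description of letters and not a measured binding site. Srf, the gene for serum response factor, was not called (log2 change 0.16 ± 0.08 SE, adjusted p = 0.178 by edgeR).

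Genes that process PDGF ligands or act as co-receptors moved in both directions. Of 9 listed genes, 2 were higher, 3 were lower and 4 were not called (median log2 change -0.24). With library size alone, upper-quartile factors, no filter, a mean count of at least 50 or halved counts, 5 were lower and 2 higher. Pcsk6, a convertase that cuts growth factor precursors, rose from 21.6 ± 2.84 to 62.8 ± 11.6 CPM (SD, n = 2; log2 change 1.54 ± 0.14 SE, adjusted p = 0.00013 by edgeR). Nrp1, a co-receptor shared by several growth factors, rose from 76.7 ± 0.53 to 164 ± 8.71 CPM (log2 change 1.10). Plat encodes the tissue plasminogen activator, which can cut latent PDGF-C. It had 88 and 64 counts in anterior cells and 262 and 144 in central cells and fell by 1.42 on the log2 scale (adjusted p = 0.0188 by edgeR), a call lost without central replicate 1 (-0.88, adjusted p-value 0.111). Plau, whose product can cut latent PDGF-D, had 169 and 150 counts against 128 and 139 and was not called (adjusted p = 0.468 by edgeR). Sparc, whose matrix protein binds PDGF, fell from 46.3 ± 7.94 to 16.4 ± 4.04 CPM (log2 change -1.49).

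The signalling genes downstream of the receptors were mostly not called, as were most tested genes. Of 21 listed genes, 1 was higher, 2 were lower and 18 were not called, with a median log2 change of 0.01. The called share was 14.3%, beside 22.9% of all tested genes, and 5 of the 21 were called with the DESeq2 Wald test or with no filter. Anterior and central values did not overlap for 16 of the 21, against 63.5% of all tested genes. Shc1, an adaptor, had a log2 change of 0.24, the docking protein gene Gab1 -0.44 and Pik3r1, a regulatory subunit of phosphoinositide 3-kinase, -0.47 (adjusted p = 0.0345, 0.0177 and 0.0279 by edgeR). None of these 3 calls held under every omission of a library. Shc1 had adjusted p-values of 0.118 and 0.232 without anterior replicate 1 and anterior replicate 2 and of 0.0635 without central replicate 1, and it was not called with library size alone (0.0548) or upper-quartile factors (0.0565). Pik3r1 had 0.158 without anterior replicate 1 and 0.0581 without central replicate 2, and Gab1 had 0.122 without anterior replicate 2. The list's count of 3 fell to 1 without anterior replicate 1 or anterior replicate 2 and rose to 5 without central replicate 1 or central replicate 2.

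Further pericyte markers included several that were barely counted. Of 16 listed genes, 8 passed the filter on low counts. Kcnj8 and Atp13a5 had 0 counts in every library, Vtn, Rgs4 and Higd1b at most 5, and Abcc9 at most 8. These genes are widely used as pericyte markers, some of them mainly in brain. A count of 0 was bounded by the floor, 0.0902 to 0.0997 CPM, which takes each count as a separate event. Of the 8 tested genes, 5 were lower in anterior cells and 3 were not called. Cox4i2, one of the uncalled genes, had the opposite sign, with 160 and 178 counts in anterior cells and 111 and 83 in central cells (log2 change 0.82 ± 0.29 SE, adjusted p = 0.0739 by edgeR). With no filter, and without central replicate 1, 1 pericyte marker was called higher. Foxc1, a forkhead factor also made by mesenchyme, fell from 66.4 ± 10.04 to 5.84 ± 2.09 CPM (log2 change -3.50 ± 0.21 SE, adjusted p = 1.09e-05 by edgeR). Mcam, encoding an adhesion molecule of vessels, fell from 12.2 ± 1.12 to 2.09 ± 0.40 CPM (log2 change -2.54). Notch3, the Notch receptor of mural cells, had 12360 and 11188 counts in anterior cells and 10617 and 13235 in central cells, with a log2 change of -0.003 and an adjusted p = 0.982 by edgeR.

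Contractile genes of smooth muscle were lower or not called. Of 14 listed genes 12 were tested, 7 fell and 5 were not called (median log2 change -1.32). Without central replicate 2, 1 gene of this list was called higher and 6 lower. Myl9, a myosin light chain gene, measured 3.70 ± 0.07 CPM against 16.9 ± 3.08, and Mylk, the gene for the kinase of that light chain, 4.93 ± 1.29 against 21.2 ± 1.05 (SD, n = 2). Their log2 changes were -2.19 and -2.10, with adjusted p = 0.00011 and 0.000133 by edgeR. The genes most restricted to mature smooth muscle were scarce. Myh11 had at most 18 counts in any library, Cnn1 at most 10 and Myocd at most 20. Tagln had 37 and 38 counts in anterior cells and 74 and 55 in central cells and was not called (adjusted p = 0.220 by edgeR).

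Genes of mural cell recruitment and vessel maturation moved both ways, with 3 of 14 higher, 6 lower and 5 not called (median log2 change -0.10). The 6 lower calls became 3 without anterior replicate 2 and 4 without central replicate 2. S1pr1, a sphingosine phosphate receptor gene, measured 10.5 ± 0.24 CPM in anterior cells against 5.03 ± 0.32, a log2 change of 1.07 (adjusted p = 0.00469 by edgeR). Angpt1, the ligand by which mural cells steady vessels, rose by 1.02 on the log2 scale (adjusted p-value 0.0223) but was at 0.55 and not called without anterior replicate 1 (0.161). Tgfb1 measured 2.17 ± 0.07 against 5.52 ± 1.89 CPM (log2 change -1.35, adjusted p = 0.0166 by edgeR), a call lost without central replicate 2 (-0.95, adjusted p-value 0.0859). Tie1, an endothelial receptor gene, had 13 and 46 counts against 98 and 188, with a log2 change of -2.22 that ran from -1.51 without anterior replicate 1 to -3.51 without anterior replicate 2.

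**Figure D4:**
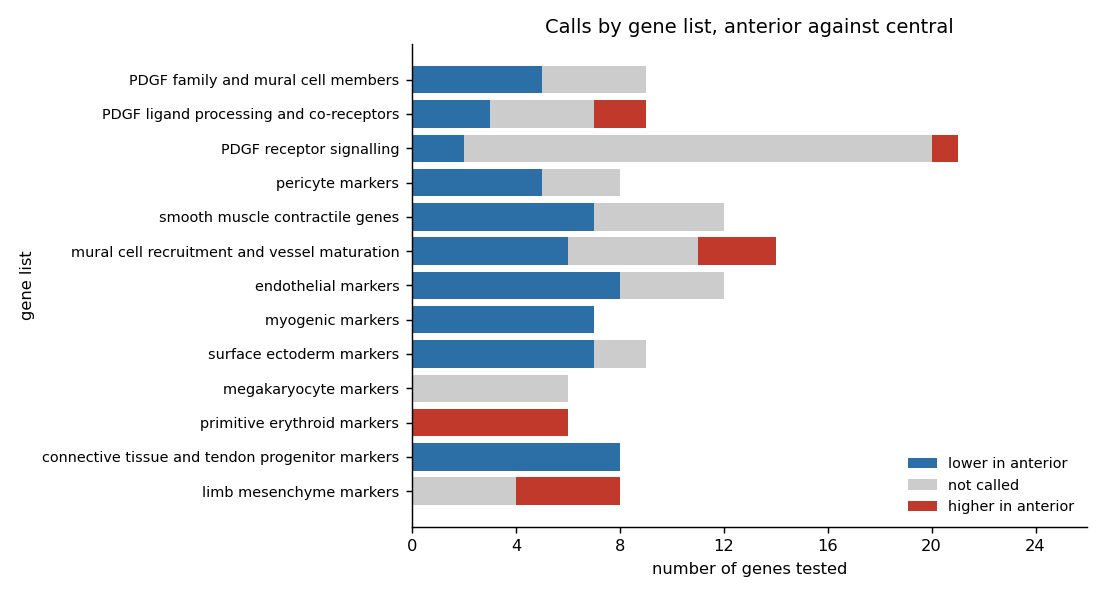
Number of tested genes called lower (blue), not called (grey) or called higher (red) in anterior cells, for the 9 members and each of 12 gene lists. With all 4 libraries and the default filter, the pericyte, smooth muscle and endothelial lists hold lower calls and no higher ones, and the list of PDGF receptor signalling is mostly grey, with 18 of 21 genes not called.

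Markers of other cell types that can make these genes were also lower in anterior cells. Of 12 endothelial markers 8 were lower and 4 were not called, and their summed level was 13.7 and 15.3 CPM in the anterior libraries and 44.6 and 49.5 CPM in the central ones. No endothelial marker was at 0 in a whole group, although Cldn5 had 0 and 2 counts in anterior cells. Kdr, the main receptor gene for vascular endothelial growth factor, had 26 and 28 counts against 194 and 262 (log2 change -3.05, adjusted p = 0.00021 by edgeR). Log2 changes of the 12 markers ran from -5.39 for Cldn5 to -0.17 for Esam, so their sum is a rough measure of endothelial content. Set against 1000 counts of those endothelial markers, Pdgfb stood at 26.3 and 44.5 in anterior cells and 13.1 and 29.3 in central cells. The Pdgfb values thus overlapped between the groups. Rgs5 stood at 70.0 and 40.1 against 23.3 and 33.7. On the same basis Cspg4 stood at 851 and 731 against 678 and 500, so that the anterior values were the higher ones. Acta2 stood at 28.4 and 4.45 against 332 and 90.5 and remained lower in anterior cells. The part of endothelial content in the changes of these genes was not tested.

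Myogenic markers were lower in 7 of 7 genes, with summed levels of 18.6 and 9.61 CPM in anterior cells and 237 and 216 CPM in central cells. Myog, a regulator of muscle differentiation, was at 0 in both anterior libraries against 494 and 190 counts in central cells. The central mean was 114-fold above the floor of 3 counts per library, which takes each count as a separate event. Surface ectoderm markers, of interest beside Pdgfa because embryonic epithelia make that ligand, were lower in 7 of 9 genes. Their sums were 10.3 and 10.1 CPM in anterior cells and 48.4 and 146 CPM in central cells. Central replicate 2 was the higher of the central libraries both for this sum and for Pdgfa (21.1 and 33.1 CPM). An order of 2 libraries cannot show a link. With limma-voom only 3 ectoderm markers were called. The part of muscle and ectoderm cells in the falls of Acta2 and Pdgfa was not tested.

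**Figure D5:**
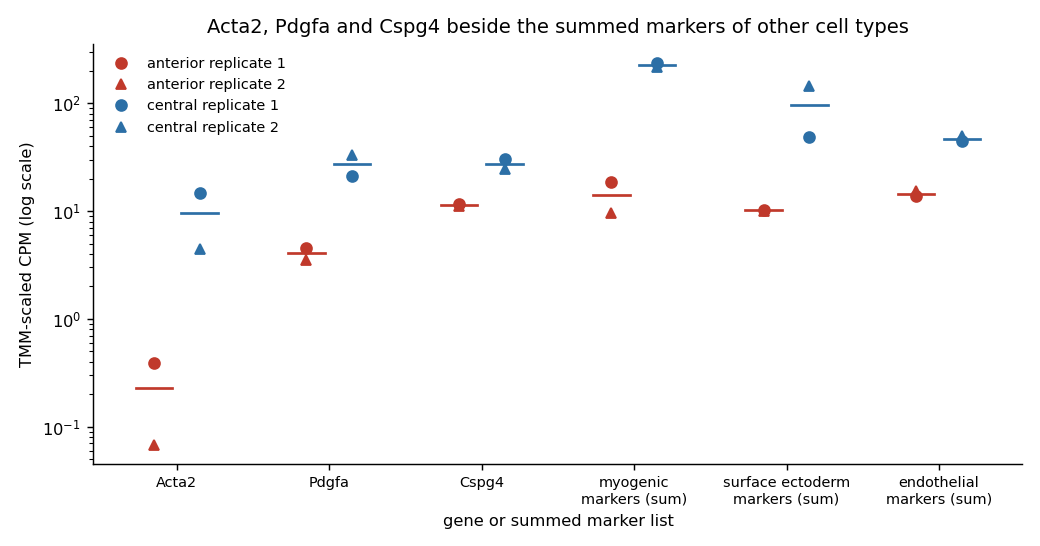
TMM-scaled CPM on a log axis for Acta2, Pdgfa and Cspg4 and for the summed markers of myogenic, surface ectoderm and endothelial cells, with anterior libraries in red, central libraries in blue, circles for replicate 1, triangles for replicate 2 and a bar at each group mean. All 6 quantities are lower in both anterior libraries than in either central one.

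Connective tissue and tendon progenitors, cells in which Pdgfra is a common marker, had 8 of 8 tested markers lower in anterior cells (median log2 change -3.62). That all 8 were called did not hold without anterior replicate 2. Osr2, a regulator of connective tissue and joints, measured 2.73 ± 0.68 against 93.1 ± 17.1 CPM (log2 change -5.08 ± 0.19 SE, adjusted p = 1.14e-06 by edgeR). The summed list stood at 905 and 783 CPM in anterior cells and 2095 and 2020 CPM in central cells, and its part in the fall of Pdgfra was not tested. With all 4 libraries the limb mesenchyme list behaved otherwise, with 4 of 8 genes higher, none lower and 4 not called. The absence of lower calls did not hold without central replicate 1. Its genes Lhx2 and Lhx9, distal mesenchyme factors, rose by 2.65 and 2.61 on the log2 scale (adjusted p = 3.72e-06 and 2.13e-06 by edgeR). Megakaryocytes, which store PDGF in granules, had 6 tested markers, of which 0 were called by edgeR, 0 by DESeq2 and 0 by limma-voom, and 0 had an unadjusted p-value under 0.05 in edgeR. In the fits without anterior replicate 2 or without central replicate 1, 1 of them was called lower. Their sums were 6.54 and 8.35 CPM against 8.02 and 9.73.

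The genes whose centred log2 CPM values lay nearest to those of a member over the 4 libraries were found among 10604 candidates (10605 for Rgs5) with a mean CPM of at least 5. For Pdgfra these were Col4a5, Rnd2 and Mirg, at Euclidean distances of 0.0279, 0.0504 and 0.0541. Their log2 changes were -1.17, -1.14 and -1.19. For Pdgfrb they were Dock4, Arid3b and Zc3h12b, at distances of 0.0281, 0.037 and 0.0381, and none of them was called. For Rgs5 the nearest were Ppp4r1l-ps, Plekha7 and Tceal1, at the larger distances of 0.185, 0.254 and 0.257. The 4 libraries give few points for such a ranking, and it is a description with no test.

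Annotated antisense genes in GENCODE overlap exons of Pdgfa, Pdgfb, Pdgfc and Pdgfra. Whether counting used strand is not given in the sources used here, so reads of such a partner cannot be told apart from those of the member. Ddi1, which lies opposite Pdgfd within an intron, had 0 and 6 counts in anterior cells and 0 and 0 in central cells.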

How the data were processed

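The authors deposited 1 table of whole-number read counts per gene symbol, not normalized, for 4 libraries of sorted hindlimb cells. Per the submitters' processing notes, STAR 2.7.9a, HTSeq and DESeq2 were used with mm10. Annotation, strand setting and filters are not given in the sources used here. Even numbers made up 72.8% to 75.7% of counts from 1 to 10, as when both mates of a pair are counted, so halved counts were also fitted. Groups and replicate numbers came from the sample titles, each matched to 1 column.

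Counts were fitted whole with edgeR 4.0.16 (R 4.3.3): filterByExpr, TMM scaling, quasi-likelihood F test, Benjamini-Hochberg adjustment over all tested genes, threshold 0.05, 2 residual degrees of freedom. The SE is the absolute log2 fold change over the square root of F. Alternatives used limma-voom (limma 3.58.1), DESeq2 1.42.0, other scalings and filters, the replicate number as a block, and each library left out. The procedure was also run on simulated data with independent counts and the same spread for every gene. That setting is simpler than these data, so it does not bear on the calls above. Exon-union lengths and positions are from GENCODE M21 (GRCm38, the same assembly as mm10), so levels per kilobase depend on that annotation. Counts of replicates differed beyond sampling noise (chi-square per degree of freedom 16.1 and 9.00 on halved counts). Counting error alone sets the floors, and they are too low where both mates of a pair were counted.

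The members and the 12 gene lists were chosen with earlier results of these data known. Named genes were the members, and per list up to 2 called genes with the largest rise and 2 with the largest fall at a mean CPM of at least 1, or, with no call, the 2 most abundant, plus the 3 nearest genes to Pdgfra, Pdgfrb and Rgs5 at a mean CPM of at least 5. Other genes were named after their values were seen, for low counts or for their role beside a member.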

Additional observations from a re-analysis of the deposited data

How the results depend on the processing

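The members' count of 5 lower calls was the same under every scaling, test, filter, block and halving that was run. The filter of a mean count of at least 50 leaves out Pdgfb and Rgs5. Leaving out 1 library gave 5 to 6 called members. In those fits the group with 1 library is assumed to vary like the other. Pdgfd, not called, ranged from -0.18 to 0.83, with -0.18 without central replicate 2. Pdgfrb ranged from 0.051 to 0.35 and was called only without central replicate 2. The number of genes called, 3351, ranged from 2009 (without anterior replicate 2) to 3697 when 1 library was left out, and from 2957 (mean count of at least 50) to 3864 (no filter) under the other alternatives. The count for PDGF receptor signalling ranged from 1 to 5 when 1 library was left out, and was 5 with the DESeq2 Wald test and 5 with no filter. With limma-voom 3 surface ectoderm markers were called, with a mean count of at least 50, 4 of the 6 endothelial markers that this filter leaves, and with no filter 1 megakaryocyte marker, which ranged from 0 to 1 when 1 library was left out. Apart from the smaller number of endothelial markers tested, the cause was not tested.

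Gp1ba and Gp1bb, uncalled and near 0, changed sign. Gp1ba was -0.012 with library size alone, -0.019 with upper-quartile factors and between -0.14 and 0.19 when 1 library was left out. Gp1bb was -0.028 with library size alone, -0.032 with upper-quartile factors, -0.045 with limma-voom, -0.011 with a mean count of at least 50, -0.018 with the replicate block, -0.0023 with halved counts and between -0.35 and 0.30 when 1 library was left out.

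Replicate numbers are shared between the groups, but nothing else pairs the libraries. Replicate differences in the 2 groups correlated across genes at 0.0463 (Pearson), and genes are not independent replicates. With the replicate block 3586 genes were called, and the log2 fold changes were -2.70 for Pdgfa, -0.76 for Pdgfc, -1.18 for Pdgfra, -1.26 for Cspg4 and -5.40 for Acta2. The block changed no call among the members. Low counts limit Pdgfb and Rgs5, whose uncalled log2 changes ranged from -0.17 to -1.49 and from -0.39 to -1.13 when 1 library was left out.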
